A study of Mus musculus with 14 samples.

Results

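Constitutive pSMAD1/5/9 sites were the peaks of phosphorylated SMAD1/5/9 after BMP6 that overlapped, by at least 1 bp, a pSMAD1/5/9 peak of vehicle-treated cells. There were 839 such sites among the 7339 BMP6 peaks (11.4%, 95% Wilson interval 10.7 to 12.2%), and the remaining 6500 BMP6 peaks, called other peaks here, served for comparison. The 839 sites rested on 804 of the 949 vehicle peaks, and 47 vehicle peaks each carried 2 sites, which share that partner. The members were therefore selected on the presence of a peak in both pSMAD1/5/9 lists, and every signal, rank, width or reproducibility value of those lists is given as a description with no test.

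The samples were muscle stem cells (MuSCs), the resident stem cells of skeletal muscle, sorted by GFP from 9-week-old female mice of the strain C57BL/6N(Tg(Pax7-EGFP)Tajb), in which a Pax7 reporter marks the cells. All cells were first starved for 6 h in medium with 200 ng/mL of soluble BMPR1A-Fc, which captures BMP ligands, so that vehicle cells had also met this trap. Stimulation lasted 1 h, with BMP6 at 100 ng/mL or its solvent alone (4 mM HCl, 0.1% BSA), and 100000 cells were fixed with 0.1% formaldehyde for 2 min. CUT&Tag, in which a tethered transposase cuts chromatin beside an antibody, was performed for pSMAD1/5/9, SMAD4 and H3K27ac in 2 biological replicates per antibody and treatment, 12 samples in all. Samples without primary antibody were not analysed here, so cutting without the antibody's target was not assessed at any site. Each antibody and treatment was represented by 1 consensus peak list of both replicates, kept at an irreproducible discovery rate (IDR) of 0.05, which measures how consistently peaks rank in replicates. A BMP6 peak without a vehicle partner was thus one for which no vehicle peak passed this threshold, and low binding in vehicle cells cannot be told apart from none. The lists held no read counts, so depth per site is unknown here.

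BMP ligands activate type I receptors that phosphorylate SMAD1, SMAD5 and SMAD9. The phosphorylated SMADs join SMAD4, enter the nucleus and bind GC-rich or AGAC-type elements, usually beside other transcription factors, and their target genes include their own inhibitors. H3K27ac marks active promoters and enhancers. In the vehicle H3K27ac list, 8 of 8 MuSC markers carried a peak within 2 kb of the transcription start site (TSS), the best at rank 1 by signal. Of 4 markers each, 1 endothelial, 2 macrophage, 1 fibro-adipogenic and 1 Schwann cell marker did so, the best of them at rank 22344 of 67790, and the defining genes Pecam1, Cdh5, Ptprc, Pdgfra and Sox10 had none.

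The sequence below the summit is shown for the 6 strongest constitutive sites, since these sites lead the BMP6 pSMAD1/5/9 list. Their vehicle peaks ranked from 2 (Skil) to 58 (Sync), and they differ in base composition and in the motifs they hold. Each window is the 200 bp centred on the BMP6 summit, plus strand, read from GRCm39, and is named by the gene with the nearest TSS. Capitals mark matches, on either strand, to any of 13 searched motifs, here the GC-rich SMAD sites GGCGCC and GGAGCC, the E-box CAGCTG and the TEAD site GGAATG. The windows lie at chr3:31148546-31148745 (Skil, promoter), chr10:79997554-79997753 (Cirbp, intergenic), chr4:129180403-129180602 (Sync, promoter), chr13:52179258-52179457 (Gadd45g, intergenic), chr6:91596952-91597151 (Slc6a6, intergenic) and chr12:113111376-113111575 (Crip1, within 2 kb of the TSS).
Skil: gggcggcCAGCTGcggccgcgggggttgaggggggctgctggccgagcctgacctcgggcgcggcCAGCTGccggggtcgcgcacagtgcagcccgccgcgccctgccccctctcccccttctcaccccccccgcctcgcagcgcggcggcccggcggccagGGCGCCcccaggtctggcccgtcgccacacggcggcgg
Cirbp: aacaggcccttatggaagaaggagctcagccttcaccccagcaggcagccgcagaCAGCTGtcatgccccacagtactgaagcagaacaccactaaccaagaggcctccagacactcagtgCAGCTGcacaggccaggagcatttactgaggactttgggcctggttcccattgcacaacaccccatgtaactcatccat
Sync: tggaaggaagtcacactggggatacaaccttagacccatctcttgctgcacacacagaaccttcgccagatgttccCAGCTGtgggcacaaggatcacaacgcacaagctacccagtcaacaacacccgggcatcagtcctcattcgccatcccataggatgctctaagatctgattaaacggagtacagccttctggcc
Gadd45g: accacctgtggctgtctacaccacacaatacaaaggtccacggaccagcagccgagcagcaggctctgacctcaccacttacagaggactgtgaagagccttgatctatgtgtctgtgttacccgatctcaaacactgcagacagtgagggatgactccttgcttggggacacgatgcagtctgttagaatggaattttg
Slc6a6: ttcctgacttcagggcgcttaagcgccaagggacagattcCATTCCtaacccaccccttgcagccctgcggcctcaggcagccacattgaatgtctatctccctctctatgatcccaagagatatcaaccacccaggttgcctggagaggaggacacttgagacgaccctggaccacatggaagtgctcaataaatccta
Crip1: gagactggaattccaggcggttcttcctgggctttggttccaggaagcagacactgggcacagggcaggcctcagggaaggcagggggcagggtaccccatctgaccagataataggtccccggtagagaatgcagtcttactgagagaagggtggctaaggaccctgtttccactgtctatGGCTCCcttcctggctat
The Skil window was 83.0% G and C, held 2 E-boxes and 1 GGCGCC, and was the only one of the 6 with GGCGCC. Crip1 held 1 GGAGCC, Cirbp 2 E-boxes, Sync 1 E-box and Slc6a6 1 TEAD site, whereas the Gadd45g window held none of the 13 motifs. The other 5 windows were 51.5 to 57.0% G and C.

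Constitutive sites were concentrated among the strongest BMP6 peaks. By signal, the peak caller's enrichment summed over both replicates, the 8 strongest BMP6 peaks, 17 of the 20 strongest and 66 of the 100 strongest were constitutive. Their median rank percentile was 15.8 (quartiles 5.86 and 40.3, 0 being strongest), against 54.0 for other peaks. The sites nevertheless spanned the list, since 15 of the weakest 734 peaks were members and the weakest member ranked 7274. They were also broader, with a median width of 795 bp against 561 bp, and 681 of them (81.2%) passed an IDR of 0.01 after BMP6, against 46.1% of other peaks. The strongest vehicle peak passed an IDR of 0.01 at 157 members (18.7%); the IDR was fitted to each list separately, so the shares of both lists are not compared.

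**Figure D1:**
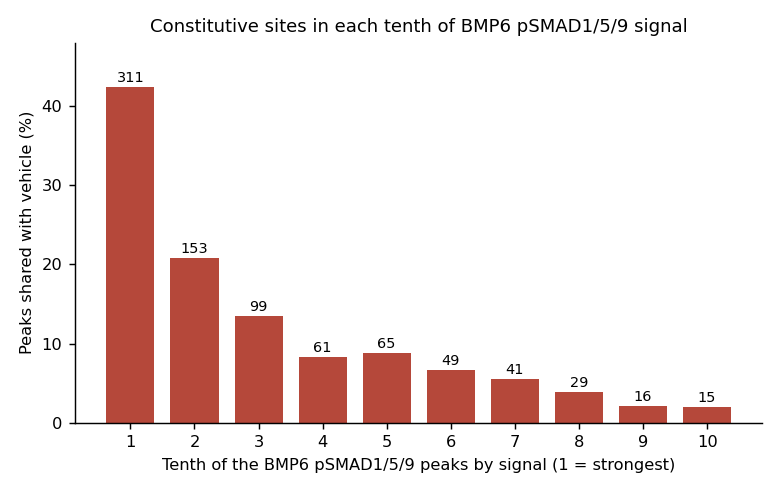
Share of BMP6 pSMAD1/5/9 peaks that overlap a vehicle peak (vertical axis, %) in 10 bins of equal size by BMP6 signal (horizontal axis, 1 = strongest), with the number of constitutive sites above each bar. The share falls from 42.4% (311 sites) in the strongest bin to 2.04% (15 sites) in the weakest; the bins use the same list as the rule and carry no test.

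Members were chosen by overlap with a vehicle peak, so closeness in position follows in large part from the rule and is given as a description. The distance between the BMP6 and vehicle summits had a median of 93 bp, 661 members (78.8%) had summits within 200 bp, and the median member was covered over 80.8% of its length. At the margin of the rule, the smallest overlap inside was 1 bp, at a peak of rank 5120 beside an unnamed gene model, followed by 10 bp at Ssc5d (rank 1710), Ckb (rank 3399) and Smarcd3 (rank 3456). Just outside, gaps of 20 bp separated the nearest vehicle peak from BMP6 peaks at Ergic1 (rank 2404) and Qsox1 (rank 4253), of 30 bp at Coro1c (rank 7004) and of 36 bp at Cirbp (rank 2681). Few sites lay that close, with 7 members overlapping by less than 50 bp and 7 other peaks within 50 bp of a vehicle peak.

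The strongest constitutive sites ranked highly in both treatments. Skil, which encodes SnoN, a corepressor that binds SMADs, carried the strongest BMP6 peak (chr3:31147468-31150140, summit 170 bp upstream of the TSS) and the second strongest vehicle peak. Its signal was 167403 and 57971 in the first and second replicate columns after BMP6, and 77740 and 53519 in vehicle. The columns do not name a replicate, and no common scale between lists is stated, so signals were compared only by rank within a list. A site 5958 bp upstream of Cirbp, the gene of a cold-inducible RNA-binding protein, ranked 2 after BMP6 (85241 and 83177) and 9 in vehicle (70724 and 44545). The 2 columns thus differed widely at Skil after BMP6 and little at Cirbp, and over all members the first column was the higher in 656 (78.2%), against 71.2% of other peaks.

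Next came the promoter of Sync, which encodes the muscle intermediate filament protein syncoilin, with a summit 589 bp upstream of the TSS, rank 3 after BMP6 (96725 and 69411) and rank 58 in vehicle (33463 and 34065). An intergenic site 178644 bp from Gadd45g, a growth arrest gene, ranked 4 (92405 and 65019) and 11 in vehicle (57628 and 52090). A site 63982 bp upstream of Slc6a6, the taurine transporter gene, ranked 5 (81286 and 59263) and 8 in vehicle (65709 and 51091). A site 1323 bp inside Crip1, which encodes a LIM domain protein, ranked 6 (82332 and 53423) and 5 in vehicle (62190 and 60995). The intronic site of Lmna, the lamin A/C gene, ranked 7 (75770 and 59205) and 6 in vehicle (61250 and 57071). All 7 of these sites stood within the strongest 58 vehicle peaks, and in 6 of them within the strongest 11.

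The 20 strongest members comprised 6 at a TSS, 5 in introns and 9 between genes. Besides those above they included sites near Irf2bpl, Pdlim7, Gamt, Nanos3, Scx, Tmem174, Spc24, Pmepa1, Cxxc5, Tbc1d1, Bloc1s1, Sik1 and the predicted gene Gm5148. Pmepa1, whose product inhibits SMAD signalling, carried an intronic site at rank 19 after BMP6 (55804 and 60959) and rank 162 in vehicle (30313 and 20747). Cxxc5, which encodes a CXXC zinc finger protein, held the strongest vehicle peak in an intron (73230 and 70313), at rank 20 after BMP6 (86522 and 29713). Scx, the gene of the tendon transcription factor scleraxis, ranked 16 (77177 and 45093) and 41 in vehicle (45240 and 28234). All 20 overlapped SMAD4 and H3K27ac peaks of both treatments, at SMAD4 ranks of 1 to 174 after BMP6 and 2 to 1090 in vehicle.

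Rank order was shared in part. Each member was paired with its strongest vehicle peak, and the strongest member of each such peak was kept, which left 794 sites. Over these, BMP6 and vehicle signal had a Spearman correlation of 0.612. The replicate columns of a list correlated at 0.822 after BMP6 (839 members) and 0.953 in vehicle. The IDR filter keeps peaks that rank consistently in replicates, so these column correlations are no neutral yardstick. Both lists share the antibody and the peak caller. Percentiles come from lists of 949 and 7339 peaks, so a difference between them gives a site's place in each list and no change in binding. Sites low in the vehicle list and high in the BMP6 list were an intron of Gse1 (percentile 98.7 in vehicle and 0.899 after BMP6), the promoters of Usp9x (91.6 and 2.48) and Abhd11 (94.1 and 7.48), an intron of Wnt9a (91.8 and 6.88) and the promoter of Klc1 (90.9 and 6.55). The opposite order was widest at sites near Gapdh (0.738 and 96.4), an unnamed gene model (1.90 and 90.6), Rab11fip4 (16.02 and 97.2), Klhl26 (17.3 and 95.2) and Cirbp (0.948 and 74.6). All 5 of these were short peaks of 249 to 588 bp beside a stronger member on the same vehicle peak, whose rank they share.

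**Figure D2:**
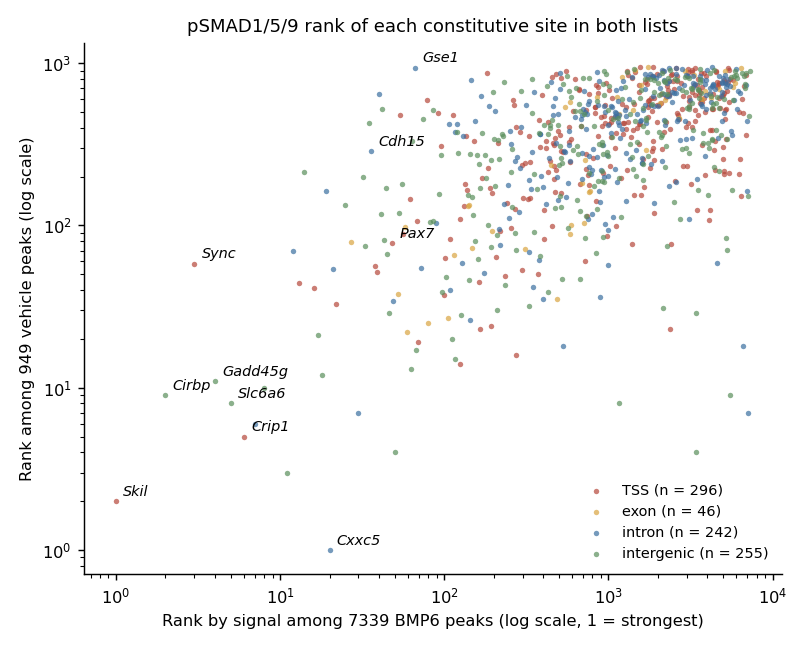
Each point is 1 of the 839 constitutive sites, placed by its rank among BMP6 peaks (horizontal, log scale) and the rank of its strongest overlapping vehicle peak (vertical, log scale), and coloured by location. Skil (1 and 2), Cirbp (2 and 9) and Cxxc5 (20 and 1) lie at the strong end of both lists, and Gse1 (66 and 937) lies low in the vehicle list and high in the BMP6 list.

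Most constitutive sites were also SMAD4 sites. A SMAD4 peak after BMP6 overlapped 780 of the 839 members (93.0%, 95% interval 91.0 to 94.5%), where the share of all BMP6 pSMAD1/5/9 peaks was 73.2% and that of other peaks 70.7%. A SMAD4 peak in vehicle overlapped 737 members (87.8%, 85.5 to 89.9%), against 57.2% of all BMP6 peaks and 53.3% of other peaks. The difference from other peaks was 22.3 percentage points after BMP6 (20.1 to 24.2, adjusted p = 3.75e-52) and 34.6 points in vehicle (31.9 to 36.9, adjusted p = 3.16e-91), by two-sided Fisher's exact tests with Benjamini-Hochberg adjustment over 20 comparisons. Peaks are not replicates of a treatment, and all come from 1 consensus list, so these p-values compare sites within these lists. SMAD4 was present in both treatments at 704 members (83.9%) and in neither at 26 (3.10%), while 22.4% of other peaks had none in either.

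Among other peaks the share with SMAD4 after BMP6 fell with pSMAD1/5/9 signal, from 98.3% in the strongest 10% to 37.0% in the weakest 10%, and members are the stronger set. In the strongest 10% of BMP6 peaks, 310 of 311 members (99.7%) and 98.3% of 422 other peaks overlapped SMAD4 after BMP6 (Fisher's exact test, adjusted p = 0.491), and 97.4% and 95.3% overlapped vehicle SMAD4 (adjusted p = 0.491). These differences, 1.34 points (-0.368 to 3.08) and 2.17 points (-0.763 to 4.94), did not pass the test. Below that bin the sets separated, chiefly for vehicle SMAD4. In the fifth bin it was present at 46 of 65 members (70.8%) and 51.4% of other peaks, and in the weakest at 11 of 15 members (73.3%, 48.1 to 89.1%) and 22.8% of other peaks. Members had the higher share in 10 of 10 bins for both. An analysis stratified by these bins, chosen after seeing the data, gave a Mantel-Haenszel difference of 13.5 points for vehicle SMAD4 and 6.27 points for SMAD4 after BMP6. Both passed an exact conditional Mantel-Haenszel test (two-sided, adjusted p = 7.51e-19 and 7.16e-07).

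**Figure D3:**
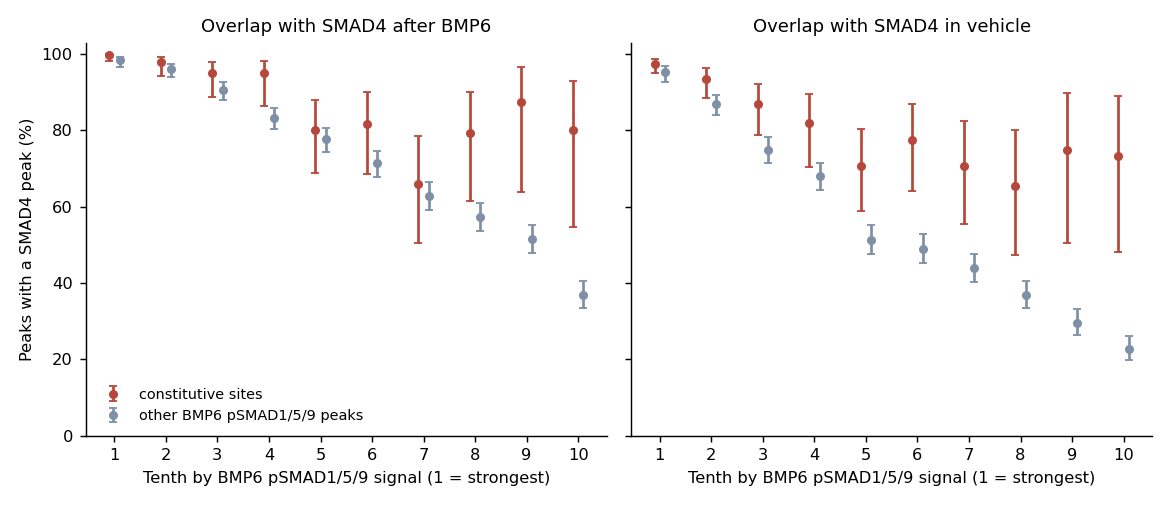
Share of peaks with a SMAD4 peak (vertical, %) after BMP6 (left) and in vehicle (right) for constitutive sites and other BMP6 pSMAD1/5/9 peaks in 10 bins of BMP6 pSMAD1/5/9 signal (1 = strongest), with 95% Wilson intervals from counts of peaks. Both sets start above 95% and members stay higher in every bin, with 73.3% against 22.8% for vehicle SMAD4 in the weakest.

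SMAD4 signal at the members followed the same order. The strongest SMAD4 peak on a member had a median rank percentile of 9.50 after BMP6 (780 members) and 12.3 in vehicle (737 members), against 27.1 and 32.3 for other peaks. A SMAD4 peak of the strongest 10% of its list was found at 399 members (47.6%) after BMP6 and 14.05% of other peaks (33.5 points, 30.04 to 37.0, Fisher's exact test, adjusted p = 1.13e-99). This difference also held within the strongest 10% of pSMAD1/5/9 peaks, at 83.6% of members and 74.2% of other peaks (9.43 points, 3.43 to 15.2, Fisher's exact test, adjusted p = 0.0276). The site at Skil carried the strongest SMAD4 peak after BMP6 and the second strongest in vehicle. The summits of SMAD4 and pSMAD1/5/9 lay close, with median distances of 89 bp after BMP6 and 88 bp in vehicle.

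The 59 members without SMAD4 after BMP6 were weaker and narrower, with a median rank percentile of 53.0 and width of 546 bp, against 14.1 and 819 bp for the rest, and 33 of them had SMAD4 in vehicle. The strongest was the promoter of Usp5, a deubiquitinase gene, at rank 109 after BMP6 and 83 in vehicle, with vehicle SMAD4. Next were an intron of Tmprss6 (rank 802) and the promoters of Samd4 (rank 866) and Zswim6 (rank 1033), all with vehicle SMAD4.

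Every constitutive site lay in acetylated chromatin. All 839 overlapped H3K27ac peaks both after BMP6 and in vehicle (100%, lower limit 99.5%), against 98.0% and 97.2% of other peaks and 98.2% and 97.5% of all BMP6 peaks. The differences, 2.03 and 2.80 points, passed Fisher's exact test (adjusted p = 6.99e-07 and 1.31e-09). In the strongest 10% of BMP6 peaks the share was 100% for both sets, and of the 132 other peaks without H3K27ac after BMP6, 96 were on chromosome X. Without that chromosome the difference after BMP6 was 0.586 points and no longer passed (Fisher's exact test, adjusted p = 0.0596). The strength of acetylation separated the sets further. A vehicle H3K27ac peak of the strongest 10% covered 697 members (83.1%, 80.4 to 85.5%) and 55.0% of other peaks (28.1 points, 25.2 to 30.8, Fisher's exact test, adjusted p = 5.18e-59), and 93.2% against 84.6% in the strongest pSMAD1/5/9 bin (adjusted p = 0.00578). H3K27ac peaks on members were broad, with a median width of 5200 bp in vehicle against 3300 bp on other peaks. Neighbouring sites can lie on 1 such peak, as the Plec sites do (vehicle rank 29). The intervals and p-values for H3K27ac therefore count sites that are not all independent.

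By canonical transcripts, the share of constitutive sites near a TSS was close to that of other peaks. A site counted as TSS when it came within 2 kb of the TSS of the canonical transcript of a protein-coding gene, and otherwise as exon, intron or intergenic. Members comprised 296 TSS (35.3%, 32.1 to 38.6%), 46 exon (5.48%), 242 intron (28.8%) and 255 intergenic sites (30.4%). The TSS share was 33.8% of all BMP6 peaks and 33.6% of other peaks, a difference of 1.63 points (-1.73 to 5.12, Fisher's exact test, adjusted p = 0.634). With all annotated transcripts in place of the canonical ones it was 47.2% against 42.3% and passed (4.92 points, Fisher's exact test, adjusted p = 0.0217). The median member summit lay 9343 bp from the nearest TSS, and the median rank percentile was 11.1 for exon, 12.7 for intergenic, 15.8 for intron and 20.1 for TSS members. SMAD4 after BMP6 was present at 91.2% of TSS members and 95.7% of intergenic members.

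In the 200 bp around the summit, the difference between members and other peaks passed Fisher's exact test for 0 of the 13 motifs, also before adjustment. The smallest p was that of RUNX sites (TGTGGTT), at 5.48% of members and 7.34% of other peaks (Fisher's exact test, unadjusted p = 0.0538). The E-box CAGCTG, bound by myogenic factors, was found at 32.1% of members and 31.0% of other peaks, and in 12.1% of windows of the same length centred on all canonical TSSs. AP-1 sites (TGACTCA or TGAGTCA) were found at 15.97% and 15.5%, against 2.89% of those TSS windows. Since most members lay away from a TSS, both motifs were also counted by location. Within 2 kb of a TSS the E-box was found at 16.6% of members and 15.3% of other peaks, and farther away at 40.5% and 38.9%. AP-1 sites were found at 7.77% and 4.71% near a TSS and at 20.4% and 20.9% farther away, and 0 of these 4 differences passed after adjustment (Fisher's exact test, adjusted p from 0.126 to 0.977). The GC-rich SMAD site GGAGCC occurred at 25.3% and 25.2% (27.4% of TSS windows), GGCGCC at 6.44% and 7.92% (11.9%), and the palindrome GTCTAGAC at 0.477% and 0.523% (0.0919%). Within 2 kb of a TSS, GGAGCC was found at 29.7% of members and 34.8% of other peaks, and GGCGCC at 11.8% and 16.2%. Farther away the shares were 22.8% and 20.3% for GGAGCC and 3.50% and 3.71% for GGCGCC. None of these differences by location passed Fisher's exact test after adjustment. TEAD sites (GGAATG) occurred at 17.6% and 15.5% (7.99% of TSS windows), a difference of 2.13 points (-0.459 to 4.99). In windows of 400 bp the TEAD shares were 30.9% and 26.5%, a difference of 4.39 points that passed (Fisher's exact test, adjusted p = 0.0232). All motifs were searched on both strands and none contains another. A match describes letters in a window and not a bound factor. The median G and C content was 56.5% in members and 56.0% in other peaks.

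Constitutive sites lay within 20 kb of the body of 1119 of 21757 protein-coding genes (5.14%), or 17.7% of the 6322 genes with any BMP6 pSMAD1/5/9 peak there. For 746 of these genes further BMP6 peaks joined the constitutive ones, and for 373 all peaks were constitutive. Of 182 genes in 9 lists, 49 had a site. The housekeeping genes, with 6 of 20, also stood above the share of all genes. The highest counts were 10 of 23 YAP and SRF targets and cytoskeletal genes and 10 of 24 myogenic and MuSC genes. BMP targets and feedback inhibitors and AP-1 and immediate early genes had 7 of 24 each, Notch pathway genes 4 of 22, extracellular matrix genes 3 of 21 and TGF-beta branch genes 2 of 13. None of the 11 genes of BMP receptors and SMADs had a constitutive site, and 5 had other BMP6 peaks. With 11 genes, having none cannot be told apart from the 5.14% of all genes.

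**Figure D4:**
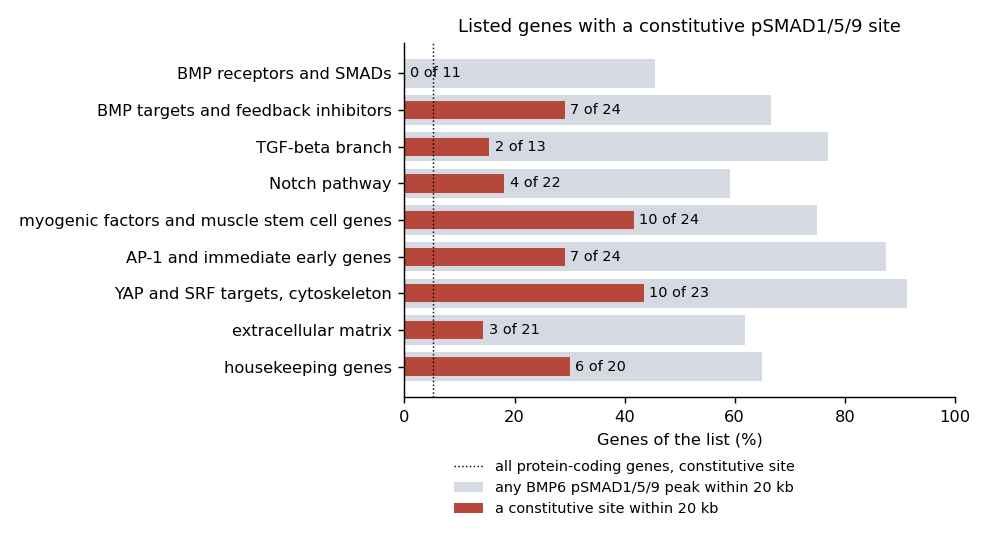
Share of the genes of each list (horizontal, %) with a constitutive site (red, count beside the bar) or any BMP6 pSMAD1/5/9 peak (grey) within 20 kb of the gene body; the dotted line marks 5.14%, the share of all protein-coding genes with a constitutive site. The list of YAP and SRF targets and cytoskeletal genes (10 of 23) and the myogenic list (10 of 24) have the highest shares. That of BMP receptors and SMADs has none among 11 genes, too few to tell this apart from 5.14%.

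Among BMP targets and inhibitors, sites were found at Skil and Ski, both encoding SMAD corepressors, at the inhibitors of differentiation Id2 and Id3, and at the transcription factor genes Atoh8, Dlx2 and Sox9. The Id3 promoter ranked 152 after BMP6 (50936 and 26622) and 332 in vehicle (22619 and 15209). Id2 ranked 763 (30655 and 15606) and 641 in vehicle (13740 and 11681). The site 3709 bp from Dlx2 ranked 42 (49770 and 51241) and 524 in vehicle (16344 and 13021). The Ski promoter ranked 516 (31109 and 22064) and 158 in vehicle (26480 and 24949). Smad7 (best rank 15) and Smad6 (90), which encode inhibitory SMADs, and Id1 (204) had BMP6 peaks that were not constitutive.

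Among Notch genes, the sites were at the receptors Notch1, Notch2 and Notch3 and near the ligand gene Jag2. The site by Jag2, in an exon of Nudt14, ranked 147 (41933 and 36269) and 73 in vehicle (37284 and 26875). The receptor sites were weaker, at ranks 1246 for Notch3 (24208 and 12917), 1940 for Notch2 (17871 and 11495) and 4095 for Notch1 (12389 and 5520), and the Notch1 site had no SMAD4 peak in either treatment. The Notch effectors Heyl (best rank 167), Hes1 (361) and Hey1 (1048) and the Notch target Snai1 (437) had BMP6 peaks without a vehicle partner. At the TGF-beta ligand genes, the best sites ranked 869 at Tgfb3, in an intron of Ift43 (25284 and 18632), and 1576 near Tgfb1 (22007 and 10994). The nearest TSS to the latter was that of Ccdc97.

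The myogenic list held sites at the stem cell genes Pax7, Cdh15 (M-cadherin) and Itga7 (integrin alpha 7), the determination factor gene Myod1, the differentiation factor gene Myog, the fusion genes Mymk and Mymx, and Mef2a, Tcf4 and Des. The strongest was in reach of Itga7 at the promoter of its neighbour Bloc1s1, rank 22 after BMP6 (78699 and 34832) and 33 in vehicle (41823 and 36690). The intronic Cdh15 site ranked 36 (77184 and 26033) and 286 in vehicle (21766 and 19022). The Myod1 promoter site, 11 bp from the TSS, ranked 1221 (16233 and 21243) and 367 in vehicle (20959 and 15399), and the Myog promoter ranked 577 (34174 and 16862) and 328 in vehicle (23191 and 14843), without vehicle SMAD4. The immediate early genes Klf10 (39674 and 40628) and Zfp36 (44986 and 35258) ranked 134 and 135, and Jun, Junb, Jund and Fosl2, which encode AP-1 subunits, had best ranks of 594, 2108, 463 and 404. Of the cytoskeletal list, Myh9, the non-muscle myosin heavy chain gene, ranked 191 (42812 and 30652), Amotl2 273 (29745 and 35431) and Vgll3, a TEAD cofactor gene, 455 (32225 and 23224). Of the matrix genes, the laminin gene Lama5 had the strongest site, rank 62 (52922 and 42075) and 145 in vehicle (28692 and 24563). The strongest site of the housekeeping list, at rank 27 (67410 and 40316), was in reach of Gapdh. Its summit lay in the body of the neighbour Iffo1, 4345 bp from the Gapdh TSS.

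Of the constitutive sites, 223 (26.6%) lay within 20 kb of another, with 20 groups of 3 or more, and 40 genes had 3 or more sites. The same share was not counted for other peaks, so whether constitutive sites cluster more was not tested. Some neighbours lie on the same vehicle peak, since 47 vehicle peaks each carried 2 sites. Pax7, the transcription factor that defines MuSCs, had the most, with 8 constitutive sites among 15 BMP6 peaks. Its gene body is long, at 96467 bp, and the counts were not scaled by length. The cells also carry a Pax7 reporter transgene, and what it adds to peaks at Pax7 was not tested. The 8 vehicle peaks at Pax7 all overlapped a constitutive site. The promoter site (chr4:139559791-139562124) ranked 48 after BMP6 (68329 and 31497) and 78 in vehicle (36947 and 26339). Further sites followed along the gene, with summits at 5699, 7894, 9112, 27992, 62127 and 86134 bp from the TSS, and the last lay beyond the gene end at 116922 bp. That distal site ranked 111 (52773 and 31666) and held the strongest vehicle peak within 20 kb of the gene, at rank 20 (48814 and 36913). Its nearest TSS was that of Tas1r2, at 63068 bp. Constitutive sites farther out, also nearest to Tas1r2, had vehicle ranks of 15, 13 and 213. All 8 sites counted for Pax7 overlapped SMAD4 and H3K27ac of both treatments. A vehicle SMAD4 peak at rank 10 covered the site at 9112 bp, and the H3K27ac peak over the promoter ranked 17 after BMP6 and 68 in vehicle.

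**Figure D5:**
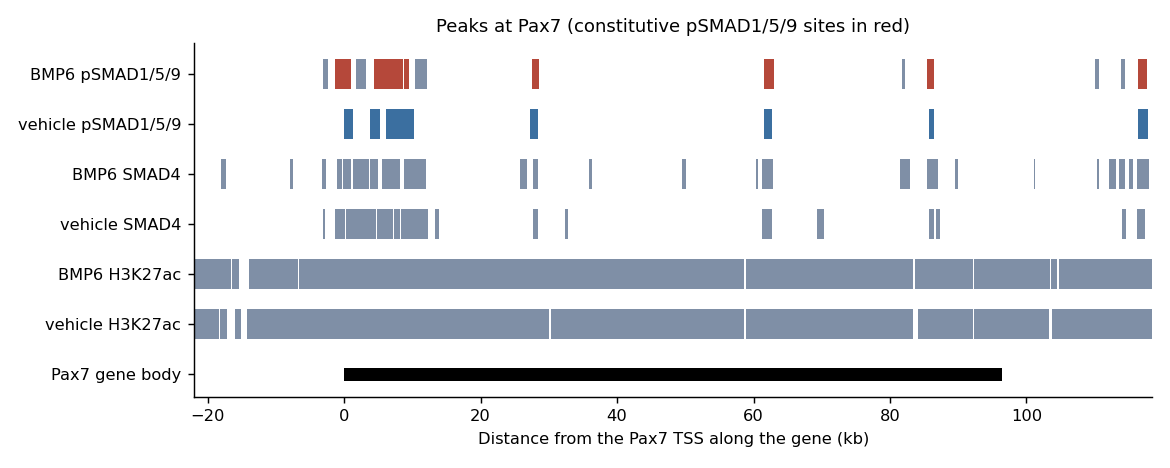
Peaks of the 6 lists around Pax7, by distance from its TSS along the gene (horizontal, kb), with the gene body in black and constitutive pSMAD1/5/9 sites in red. The 8 constitutive sites of 15 BMP6 peaks sit where the 8 vehicle pSMAD1/5/9 peaks are, and each overlaps SMAD4 and H3K27ac peaks of both treatments.

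Other dense loci were Cirbp and Midn, which share 6 sites on chromosome 10, Plec, the plectin gene, with 6 sites among 7 BMP6 peaks, and Ski with 5 among 12. The Plec promoter site ranked 275 (31806 and 33068) and 16 in vehicle (57805 and 32598), and a site 11641 bp upstream ranked 141 (53287 and 25714) and 46 in vehicle (43859 and 27355). At Ski, besides the promoter site, 3 sites lay in introns, 48629 to 59244 bp from the TSS, at ranks 724 to 3114, and the fifth, at rank 786, lay beyond the gene end, 78942 bp from the TSS. Flnc and Lmna, whose products filamin C and lamin A/C support the cytoskeleton and nucleus, had 4 sites each. Gapdh and its neighbour Iffo1 shared 4 sites. Neighbouring genes share sites, so these counts are not independent.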

How the data were processed

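Read pairs were, per the study's methods, subsampled to equal depth per antibody and aligned to GRCm39; the submitters' notes name Bowtie2 2.5.4, SAMtools 1.21 and bedtools 2.31.1. The authors called peaks with JAMM in each replicate and combined both with IDR at 0.05, which gave the 6 deposited lists. In these, the authors' signal (column 7) and IDR rank are a score, the IDR is given as −log10, and positions are in other columns. Read counts and depth are unknown here, so intervals cover counts of peaks only.

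Lists were compared by 1 bp of overlap in Python 3.11.15 with SciPy 1.17.1 and pysam 0.24.0. Genes were the canonical transcripts of protein-coding genes of GENCODE M39 (the study used RefSeq Select), and gene names came from there, since the lists hold none. Shares were tested with two-sided Fisher's exact tests, adjusted by Benjamini-Hochberg over 20 comparisons (7 shares and 13 motifs), with Newcombe intervals of differences. Overlap, test and motif code was tested on simulated data, where 100% of planted overlaps were found. The members and all lists and tests were chosen with earlier results of these data known. Genes named are those nearest to the 20 strongest members, the 10 with the strongest vehicle peaks and the 5 with the widest difference in percentile between both lists in each direction, listed genes with a site, and genes with 3 or more sites; others were named after their values were seen. Alternatives changed the IDR limit, overlap rule, merging, peaks compared, replicate column, chromosomes, TSS and motif windows; comparisons within signal bins were added after seeing the data. Promoter sequences of another genome build were not used.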

Additional observations from a re-analysis of the deposited data

How the results depend on the processing

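The share of BMP6 peaks that were constitutive, 11.4%, depended most on what was compared. It was 3.865% with an IDR of 0.01 in both pSMAD1/5/9 lists, 8.72% with 50% of both peaks overlapping, 9.03% with summits within 200 bp, 42.4% in the strongest 10% and 39.4% among the 949 strongest BMP6 peaks. The SMAD4 differences were weaker, and no longer passed, in the strongest 10% (1.34 points after BMP6 and 2.17 in vehicle) and among the 949 strongest (1.285 and 3.15), and passed under every other alternative run for them. The H3K27ac differences after BMP6 and in vehicle were 0 and 0 in both of these subsets and 0.0849 and 0.425 at an IDR of 0.01. After BMP6 alone, they also missed the threshold on autosomes (0.586) and within signal bins, with whole peaks (0.542) or 400 bp (0.532). The TSS difference was -2.34 points at an IDR of 0.01, without passing, and 4.92 points with all transcripts, where it passed. The number of motifs past the threshold was 0 in 200 bp and 1 in 400 bp windows. Listed genes with a site fell from 49 to 13 at an IDR of 0.01 and to 27 with 2 kb around the TSS. Some of these alternatives hold fewer peaks, while the signal bins and the all-transcript and 400 bp settings keep all 839 members and 6500 other peaks. The cause of the changes was not tested. With the positions and signal of a single replicate column the share was 11.2 to 11.3%. The TSS, SMAD4 and H3K27ac differences then kept their direction and side of the threshold. These runs reuse the consensus peaks, which had passed the IDR in both replicates, and the consensus SMAD4 and H3K27ac lists. They therefore cannot show what 1 replicate alone would give. Motifs and gene lists were not recounted so. No paired analysis was possible because each antibody and treatment has 1 consensus list, whose columns carry no replicate number. Vehicle sites under the IDR threshold count as unshared, and what depth limits is unknown, since the lists hold no read counts.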

Other observations

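Chromosome X held fewer constitutive sites than the autosomes, a comparison chosen after seeing the data and given without a test. Of 368 BMP6 pSMAD1/5/9 peaks on chromosome X, 15 were constitutive (4.08%), against 824 of 6971 autosomal peaks (11.8%). X-linked BMP6 peaks were weaker, with a median rank percentile of 74.6 against 49.2. In the strongest 10%, 4 of the 28 X-linked peaks were constitutive, against 311 of 733 peaks (42.4%) over all chromosomes. The promoter of Usp9x, which encodes a deubiquitinase, was an X-linked member, at rank 182 of the 7339 BMP6 peaks and 869 of the 949 vehicle peaks. The part of peak strength in this difference was not tested.

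The 145 vehicle peaks without a BMP6 partner lay in the lower part of the vehicle list, with a median rank percentile of 77.3 against 44.2 for shared ones, and 0 of the 94 strongest vehicle peaks were among them. The strongest were at the promoter of Chchd4, a mitochondrial import gene (rank 157 in vehicle), between genes near Gm5148 (234) and Gadd45g (245), in an intron of Fermt2, the kindlin-2 gene (267), and at the promoter of Pkhd1 (306).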
